A study of Homo sapiens with 12 samples.

Results

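The BCL2 family holds the proteins that decide whether the outer mitochondrial membrane stays closed, and 10 of its genes were followed here by their RNA. They were taken as a named list, MCL1, BCL2, BCL2L1, BCL2L2, BAX, BAK1, BID, BBC3, PMAIP1 and BCL2L11, and each was matched by its GENCODE 29 symbol to 1 Ensembl identifier among the 58735 genes of both deposited tables. SK-BR-3 cells are a human breast cancer line with amplified ERBB2, and SK/EPI is a subline made from it by prolonged, stepwise exposure to rising epirubicin, an anthracycline that damages DNA. SK/EPI-siBCRP and SK/EPI-siControl are SK/EPI cells given an siRNA against BCRP or a control siRNA with Lipofectamine RNAiMax for 48 h. Each of the 4 groups had 3 libraries of poly-A selected RNA, and the 12 libraries held between 15830381 and 20545811 reads on genes.

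The RNA sequencing had 1 resistant line and, for BCRP, 1 siRNA sequence. What is particular to that line or to that oligonucleotide thus cannot be told apart here from resistance or from loss of BCRP. In other assays the study also used a further BCRP siRNA, an inducible shRNA and another resistant line. The labels do not say whether the 3 libraries of a group came from separate cultures, and the p-values measure only the spread between these libraries. In such bulk RNA, fewer cells with a transcript and less of it per cell cannot be told apart. SK-BR-3 and SK/EPI were deposited in one table and the siRNA groups in another, and levels set across the tables are a description only.

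In this family the antiapoptotic members MCL1, BCL2, BCL2L1 (BCL-xL) and BCL2L2 (BCL-w) bind and restrain the effectors BAX and BAK1, which form pores in the outer mitochondrial membrane and release cytochrome c. BH3-only proteins such as BID, BBC3 (PUMA), PMAIP1 (NOXA) and BCL2L11 (BIM) start this step by occupying the antiapoptotic proteins or by acting on the effectors directly, and NOXA binds MCL1 with particular preference. MCL1 protein is short-lived, so it follows its RNA quickly, and epithelial tumours including breast cancer often depend on MCL1 or BCL-xL. The study measured MCL1 as a survival protein after BCRP silencing, and the question here was what the RNA of MCL1 and of its partners did in the same cells.

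All 10 genes share a BH3 motif, the short helix through which family members grip one another. Its coding sequence is shown for 5 members, the antiapoptotic pair with the highest RNA, the effector BAK1, and the BH3-only partners PMAIP1 and BCL2L11, with the 6 core codons in capitals (GRCh38, coding strand, 5′ to 3′).
MCL1: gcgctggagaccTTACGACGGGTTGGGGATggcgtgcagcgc
BCL2L1: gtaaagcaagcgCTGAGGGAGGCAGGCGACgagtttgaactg
BAK1: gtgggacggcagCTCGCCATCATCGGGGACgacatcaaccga
PMAIP1: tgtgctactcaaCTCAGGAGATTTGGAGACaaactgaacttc
BCL2L11: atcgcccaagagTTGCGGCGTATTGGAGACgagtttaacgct
The MCL1 stretch lies at chr1:150578865-150578906 on the minus strand in exon 1 of 3, and that of BCL2L1 at chr20:31721922-31721963 on the minus strand in exon 1 of 2. BAK1 carries it at chr6:33575387-33575428 on the minus strand in exon 4 of 6, PMAIP1 at chr18:59902661-59902702 on the plus strand in exon 2 of 2, and BCL2L11 at chr2:111150091-111150132 on the plus strand in exon 3 of 4. The core was located by a protein pattern that begins with leucine or methionine and holds glycine or alanine followed by aspartate. Shared letters at those codons thus follow in part from the search. In 9 of the 10 members the core ended with the letters GGNGAN, which hold glycine, and BBC3, with alanine there, was the exception. Between 5 and 14 of the 18 core bases were identical in any pair of members, the lowest for BCL2L2 with BAK1, and part of this identity was set by the pattern.

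The siRNA used for RNA sequencing was named by the study as siBCRP #1, a duplex of 25-base strands. Bases 2 to 8 of each strand, the seed with which a small RNA first pairs with transcripts, are in capitals.
siBCRP#1-Lower: aUAACCAGcugauucaaaguauccc
siBCRP#1-Upper: gGGAUACUuugaaucagcugguuau
The lower strand is the complement of 25 coding bases of ABCG2, the gene of BCRP, across the junction of exons 7 and 8 of 16 (chr4:88115054-88118128, minus strand). ABCG2 checked the labels: it stood at 2.84, 3.47 and 2.91 FPKM (fragments scaled for exon length and for mapped reads) in the SK/EPI-siBCRP libraries and at 32.5, 32.7 and 33.7 FPKM in the control siRNA libraries. Its log2 fold change was -3.06 (SE 0.06, adjusted p = 6.5e-07), where log2 fold changes here and below are of FPKM + 1 and adjusted p-values are from limma with the Benjamini-Hochberg method over all tested genes. In the other table ABCG2 was at 0.0220 to 0.0750 FPKM in SK-BR-3 and 32.7 to 35.9 FPKM in SK/EPI.

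All 5 luminal markers were high in every library, and they differed between SK-BR-3 and SK/EPI. In SK/EPI ERBB2 (652 to 663 against 129 to 136 FPKM) and KRT19 fell, by 2.30 and 1.69 on the log2 scale, KRT18 rose by 0.75 and KRT8 by 0.24, and EPCAM was not called. Of the 7 leukocyte, fibroblast and endothelial markers, PTPRC reached at most 0.0669 FPKM, COL1A2 0.0183, PECAM1 0.229, VWF 0.113, CD3E 0.506, PDGFRB 0.405 and COL1A1 1.60 FPKM. In SK/EPI COL1A1 (mean 1.57 to 0.794 FPKM) was called down, and PDGFRB (0.0106 to 0.300 FPKM) and PECAM1 (0.00915 to 0.129 FPKM) were higher. PDGFRB held 1, 2 and 1 reads in SK-BR-3 and 45, 35 and 41 in SK/EPI. PECAM1 held 0, 1 and 3 reads in SK-BR-3 and 22, 11 and 24 in SK/EPI. Both genes passed the filter on low reads only through SK/EPI, so no weight rests on their calls. After silencing all 5 luminal markers were lower, with log2 fold changes of -0.06 (EPCAM) to -0.44 (KRT19), and the part of these markers in the changes of the family was not tested in either comparison.

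MCL1 had the highest RNA of the 10 genes in each of the 4 groups, followed by BAK1. FPKM here is per length of a gene's merged exons, and a gene whose transcripts use only part of them reads low against the others: BAX has 2587 merged exonic bases and a longest protein-coding transcript of 1358 bases, BID 4446 and 2495, and BAK1 2212 and 2212. In SK-BR-3 the mean levels ran from MCL1 (71.4 FPKM) and BAK1 (61.1) through BCL2L1 (26.7), BCL2L2 (12.8), BID (11.7), BAX (11.3), BCL2L11 (3.92) and BBC3 (2.44) to PMAIP1 (0.279) and BCL2 (0.113). The libraries of neighbours in that order overlapped only for BID with BAX. In SK/EPI PMAIP1 stood between BCL2L1 and BAX and overlapped both in range. In the siRNA groups PMAIP1 came after MCL1 and BAK1, the ranges of BAX and BCL2L1 overlapped in SK/EPI-siControl, and those of BCL2L1, BID and BCL2L2 formed an overlapping run in SK/EPI-siBCRP. Per length of the longest protein-coding transcript, an alternative chosen after seeing the data, MCL1 was again first in all 4 groups, but BAX passed BAK1 in SK/EPI (32.0 against 27.9) and in SK/EPI-siControl (31.9 against 27.5), and BAX and BID passed BCL2L2 in SK-BR-3.

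**Figure D1:**
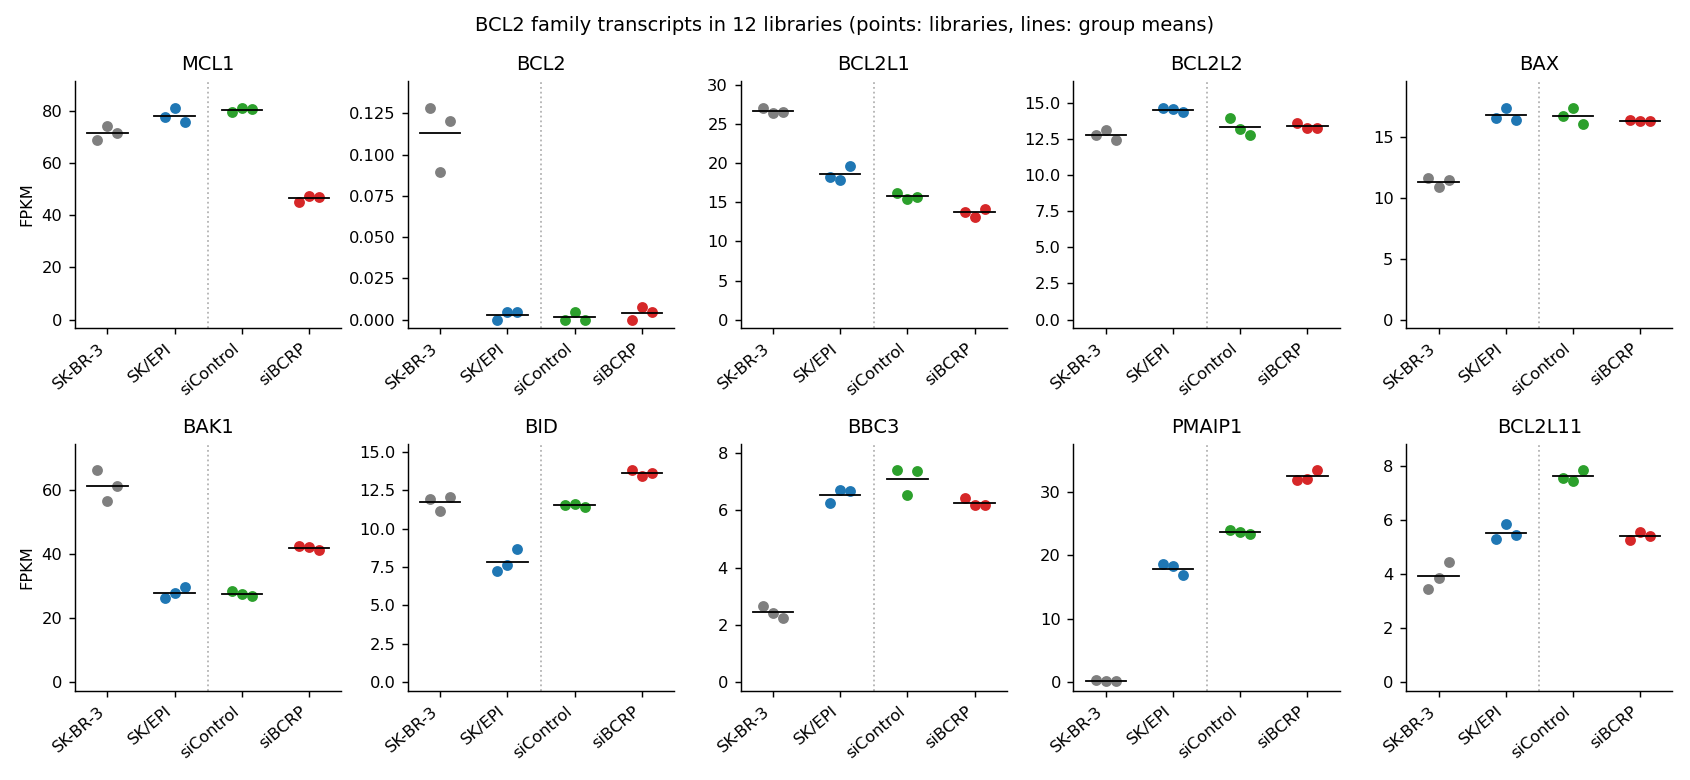
FPKM of the 10 genes (vertical axes, each with its own scale from 0) in the 4 groups, with 1 point for each library, a line at the group mean and a dotted line between the 2 deposited tables. MCL1 sat at 45.0 to 47.4 FPKM in SK/EPI-siBCRP and at 79.5 to 81.3 in SK/EPI-siControl, and PMAIP1 was under 0.5 FPKM only in SK-BR-3.

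The first comparison asked how the resistant line differs from its parent. PMAIP1, BBC3, BAX, BCL2L11, BCL2L2 and MCL1 rose in SK/EPI against SK-BR-3, and BAK1, BID, BCL2L1 and BCL2 fell. Of the 15920 tested genes 74.7% were called, 37.9% up and 36.8% down, so being called did not set the members apart. PMAIP1 and BCL2 passed the filter on low reads only through the group where they were high. The other 8 members had at least 10 reads in every library, and with that filter 5 of them were called up and 3 down, where 75.8% of 13214 genes were called, 36.4% up and 39.4% down.

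Among the antiapoptotic genes, MCL1 (ENSG00000143384, chr1:150574551-150579738, minus strand) differed little. Its RNA stood at 68.7, 74.0 and 71.5 FPKM in SK-BR-3 and at 77.5, 81.0 and 75.6 FPKM in SK/EPI, so that every SK/EPI library lay above every SK-BR-3 library by a small margin. The log2 fold change was 0.13 (SE 0.04, adjusted p = 0.0219, limma), a mean 1.09-fold higher, and 79.8% of tested genes changed more in absolute value. This call was lost with no filter on low values (adjusted p = 0.0524), without SK-BR-3 replicate 1 (adjusted p = 0.0593) and without SK/EPI replicate 2 (adjusted p = 0.085). With limma voom on reads the value was 0.21, but the median over all tested genes was then 0.1031, beside 0.0096 in the main fit.

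BCL2L1 (chr20:31664452-31723989, minus strand) encodes BCL-xL and, by splicing, a shorter proapoptotic form that gene-level values do not separate, just as they do not separate the long and short forms of MCL1. It was at 27.1, 26.4 and 26.5 FPKM in SK-BR-3 and at 18.2, 17.8 and 19.7 FPKM in SK/EPI. The parental libraries were thus tightly grouped well above the resistant ones, with a log2 fold change of -0.50 (SE 0.04, adjusted p = 1.29e-05). Of its exonic bases 43.0% are shared with the antisense gene ABALON, whose reads cannot be told apart from its own where counting ignores strand.

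BCL2L2 (chr14:23298790-23311759, plus strand) was at 12.8, 13.1 and 12.4 FPKM in SK-BR-3 and at 14.7, 14.6 and 14.3 FPKM in SK/EPI, a log2 fold change of 0.17 (SE 0.03, adjusted p = 0.00227). It shares 19.4% of its exonic bases with the readthrough gene BCL2L2-PABPN1 on the same strand, so its level is uncertain to that extent. BCL2 itself (chr18:63123346-63320128, minus strand), the founding member of the family, was almost silent throughout. Its 3 SK-BR-3 libraries held 24, 19 and 27 reads (0.129, 0.0894 and 0.121 FPKM) and its SK/EPI libraries 0, 1 and 1 reads. Summed and scaled by library totals, the reads were 37.3-fold higher in SK-BR-3 (exact 95% interval 9.94 to 314, for counting error only). The log2 fold change of FPKM + 1 was -0.15, and no p-value is given because BCL2 passed the filter only through SK-BR-3. In the siRNA table BCL2 held at most 2 reads a library and was not tested.

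The summed FPKM of the 4 antiapoptotic genes was 109 to 114 in SK-BR-3 and 110 to 113 in SK/EPI, and the ranges overlapped. Within that sum MCL1 made up 63.2% to 65.2% in SK-BR-3 and 69.0% to 71.4% in SK/EPI.

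The effectors moved in opposite directions. BAX (chr19:48954815-48961798, plus strand), which is cytosolic in healthy cells and inserts into mitochondria on activation, was at 11.6, 10.9 and 11.4 FPKM in SK-BR-3 and at 16.5, 17.4 and 16.4 FPKM in SK/EPI. Its log2 fold change was 0.53 (SE 0.04, adjusted p = 7.44e-06). BAK1 (chr6:33572547-33580293, minus strand), which sits in the mitochondrial membrane and is held there by MCL1 and BCL-xL, was at 66.0, 56.4 and 61.0 FPKM in SK-BR-3 and at 26.3, 27.7 and 29.7 FPKM in SK/EPI. The lowest parental library thus lay far above the highest resistant one, and BAK1 fell by 1.10 on the log2 scale (SE 0.06, adjusted p = 1.73e-06), a mean 2.19-fold lower.

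Of the BH3-only members, 3 rose and BID fell. PMAIP1 (chr18:59899948-59904306, plus strand), whose product NOXA targets MCL1, went from near absence to one of the more abundant family transcripts. Its SK-BR-3 libraries held 15, 11 and 6 reads (0.423, 0.273 and 0.141 FPKM), and its SK/EPI libraries 817, 737 and 705 reads (18.7, 18.3 and 16.8 FPKM). The scaled reads were 66.3-fold higher in SK/EPI (exact 95% interval 46.8 to 97.2, for counting error only), with a log2 fold change of 3.89. PMAIP1 passed the filter only through SK/EPI, so no p-value and no rank among the tested genes are given for it. The pseudocount of 1 compresses low values, and the fold change was 5.64 with a pseudocount of 0.1 and 6.19 with limma voom on reads.

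BBC3 (chr19:47220822-47232766, minus strand), which encodes PUMA, which binds every antiapoptotic member, was at 2.66, 2.40 and 2.25 FPKM in SK-BR-3 and at 6.26, 6.70 and 6.67 FPKM in SK/EPI. The SK/EPI libraries all lay well above the parental ones, with a log2 fold change of 1.14 (SE 0.06, adjusted p = 1.07e-06). BCL2L11 (chr2:111119378-111168447, plus strand), which encodes BIM, was at 3.45, 3.87 and 4.45 FPKM in SK-BR-3 and at 5.29, 5.86 and 5.44 FPKM in SK/EPI, a log2 fold change of 0.41 (SE 0.08, adjusted p = 0.00193).

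BID (chr22:17734138-17774770, minus strand), which links death receptors to mitochondria once caspase 8 has cut it, was at 11.9, 11.2 and 12.1 FPKM in SK-BR-3 and at 7.24, 7.60 and 8.65 FPKM in SK/EPI. It fell by 0.53 on the log2 scale (SE 0.06, adjusted p = 0.000132). The summed FPKM of the 4 BH3-only members was 17.7 to 18.9 in SK-BR-3 and 37.4 to 38.4 in SK/EPI, and PMAIP1 made up 0.746% to 2.29% of it in the parent and 44.8% to 49.8% in the resistant line. This sum leaves out the BH3-only genes BAD, BIK, BMF and HRK, which are not members of the list and are given below.

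The promoter of PMAIP1 is shown because its RNA changed most among the members, as the 250 bases before its RefSeq start (GRCh38.p14, chr18:59899746-59899995, plus strand), with the letters ACGTCA in capitals.
PMAIP1 promoter: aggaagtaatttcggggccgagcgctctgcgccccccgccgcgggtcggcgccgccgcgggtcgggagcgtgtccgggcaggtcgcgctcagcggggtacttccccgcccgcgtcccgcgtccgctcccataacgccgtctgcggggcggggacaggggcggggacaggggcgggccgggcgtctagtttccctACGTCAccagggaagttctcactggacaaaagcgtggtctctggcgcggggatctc
The letters TGACGT, the core of the element bound by ATF and CREB factors, occurred once on either strand here and in none of the promoters of the other 7 members matched in the RefSeq table, and 7.1% of 35116 promoters of the same length held them. GGGCGG occurred 4 times, and 42.6% of all promoters held it. CACGTG, the E-box letters, occurred 4 times in the BAX promoter, once in that of BBC3 and once each in some of the promoters of BID. Of all promoters 6.3% held it. These matches are letters in a window and were not tied to binding of a factor.

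The second comparison asked what silencing of BCRP did in the resistant cells. MCL1 showed the largest change of the tested members, a fall, and BCL2L11, BCL2L1 and BBC3 fell as well, while BAK1, PMAIP1 and BID rose. Of the 9 members tested, 7 were called, 4 down and 3 up, where 37.5% of the 16511 tested genes were called, 18.4% down and 19.1% up. The groups did not overlap for 7 of the 9, and for 50.4% of all tested genes. The median log2 fold change of the members was -0.03, beside -0.0032 over all tested genes.

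MCL1 was at 45.0, 47.4 and 47.1 FPKM after silencing and at 79.5, 81.3 and 80.7 FPKM with the control siRNA. The libraries of each group lay within a few FPKM of each other and the groups were far apart. MCL1 fell by 0.78 on the log2 scale (SE 0.03, 95% interval -0.84 to -0.72, adjusted p = 3.59e-06), a mean 1.73-fold lower, and 185 of the tested genes, 1.12%, had a larger absolute change. Leaving out each library in turn gave -0.79 to -0.76.

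BCL2L1 was at 13.8, 13.1 and 14.2 FPKM after silencing and at 16.2, 15.4 and 15.7 FPKM with the control siRNA, a smaller fall with a log2 fold change of -0.19 (SE 0.04, adjusted p = 0.00565). For BCL2L2 the libraries overlapped, at 13.3 to 13.6 FPKM against 12.7 to 13.9 FPKM, and the difference was 0.01 on the log2 scale (95% interval -0.08 to 0.10, adjusted p = 0.862). The summed antiapoptotic FPKM was 72.4, 73.8 and 74.6 in SK/EPI-siBCRP and 110, 110 and 109 in SK/EPI-siControl, and the share of MCL1 in it was 62.1% to 64.2% against 72.5% to 74.0%.

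BAK1 was at 42.4, 42.2 and 41.2 FPKM after silencing and at 28.4, 27.4 and 26.9 FPKM with the control siRNA. All silenced libraries were well above all control libraries, with a log2 fold change of 0.59 (SE 0.03, adjusted p = 9.87e-06), 1.52-fold in the means. BAX stood at 16.3 to 16.4 FPKM against 16.05 to 17.4 FPKM, overlapping, with a log2 fold change of -0.03 (95% interval -0.11 to 0.05, adjusted p = 0.494).

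PMAIP1 was at 31.9, 32.1 and 33.4 FPKM after silencing and at 23.9, 23.6 and 23.4 FPKM with the control siRNA, again without overlap. The log2 fold change was 0.44 (SE 0.03, adjusted p = 2.5e-05), a mean 1.37-fold higher. BID was at 13.8, 13.4 and 13.6 FPKM against 11.6, 11.6 and 11.4 FPKM, a log2 fold change of 0.22 (SE 0.03, adjusted p = 0.000591).

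BCL2L11 went the other way and was at 5.27, 5.55 and 5.41 FPKM after silencing against 7.55, 7.46 and 7.85 FPKM with the control siRNA. It fell by 0.43 on the log2 scale (SE 0.04, adjusted p = 0.000167), a mean 1.41-fold lower. BBC3 was at 6.43, 6.19 and 6.16 FPKM against 7.39, 6.54 and 7.37 FPKM, so that SK/EPI-siControl replicate 2 lay close to the silenced libraries. Its log2 fold change of -0.16 (SE 0.05, adjusted p = 0.0487) was at the edge of the threshold: the call was lost with no filter (adjusted p = 0.111) and with median-of-ratios scaling (0.0539). It was also lost without SK/EPI-siBCRP replicate 1, 2 or 3 (0.069, 0.117 and 0.118) and without SK/EPI-siControl replicate 1 or 3 (0.136 and 0.138).

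**Figure D2:**
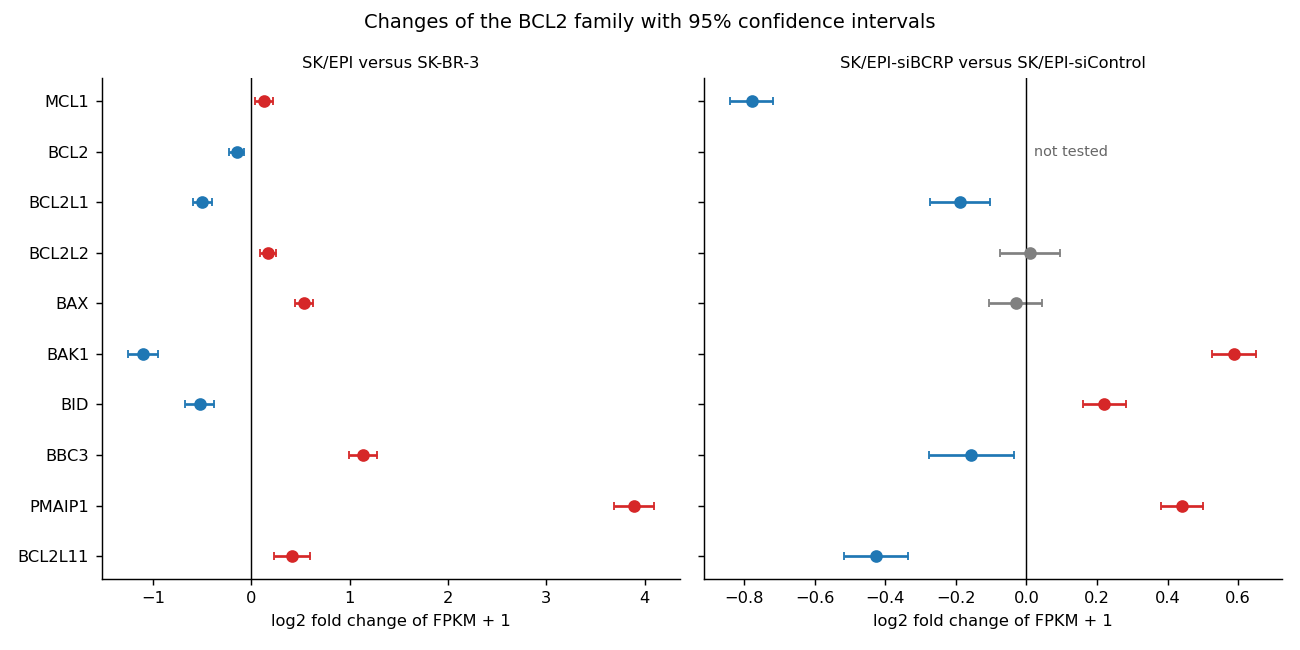
Log2 fold change of FPKM + 1 (horizontal axis) of each member with its 95% confidence interval, for SK/EPI against SK-BR-3 (left, with an axis of its own) and SK/EPI-siBCRP against SK/EPI-siControl (right). Red marks a called rise, blue a called fall and grey no call, and MCL1 lies at 0.13 on the left and at -0.78 on the right. On the left PMAIP1 and BCL2 passed the filter only through the group where they were high.

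Ratios of members within 1 library do not depend on how libraries were scaled. The MCL1 to PMAIP1 ratio of FPKM was 162, 272 and 507 in SK-BR-3, where PMAIP1 rested on few reads, and 4.15, 4.44 and 4.49 in SK/EPI. It was 3.32, 3.44 and 3.45 in SK/EPI-siControl and 1.41, 1.48 and 1.41 in SK/EPI-siBCRP. NOXA RNA thus came closest to that of its preferred target in the silenced cells, with no overlap between those groups. MCL1 to BAK1 was 1.04 to 1.31 in SK-BR-3, 2.55 to 2.95 in SK/EPI, 2.80 to 3.00 in SK/EPI-siControl and 1.06 to 1.15 in SK/EPI-siBCRP, so that the silenced libraries lay within the range of the parental ones. In that drop MCL1 RNA fell and BAK1 RNA rose.

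The summed antiapoptotic FPKM was 5.85 to 6.42 times the summed BH3-only FPKM in SK-BR-3, 2.92 to 2.95 times in SK/EPI, 2.17 to 2.23 times in SK/EPI-siControl and 1.26 to 1.29 times in SK/EPI-siBCRP. The BH3-only sum is of the listed members and leaves out BAD, BIK, BMF and HRK. In SK-BR-3 mean BAD alone (22.45 FPKM) was above that sum (18.34), and in SK/EPI it was at 12.99 beside 37.81. Mean BIK went from 3.83 to 1.41, BMF from 3.25 to 3.02 and HRK from 0.00269 to 2.80 FPKM. The ratios thus hold for the listed members only. BAX to BAK1 was 0.176 to 0.193 in SK-BR-3 and 0.552 to 0.629 in SK/EPI, and 0.590 to 0.634 in SK/EPI-siControl against 0.386 to 0.396 in SK/EPI-siBCRP. MCL1 to BCL2L11 was 16.1 to 19.9, 13.8 to 14.7, 10.3 to 10.9 and 8.53 to 8.70 in SK-BR-3, SK/EPI, SK/EPI-siControl and SK/EPI-siBCRP. Per length of the longest protein-coding transcript, BAX to BAK1 was 0.335 to 0.368 in SK-BR-3 and at least 1.05 in SK/EPI, and 1.12 to 1.21 in SK/EPI-siControl against 0.735 to 0.754 in SK/EPI-siBCRP. The antiapoptotic to BH3-only ratio was then 4.10 to 4.48, 2.36 to 2.44, 1.78 to 1.83 and 1.05 to 1.08 in SK-BR-3, SK/EPI, SK/EPI-siControl and SK/EPI-siBCRP, so the sizes of these ratios depend on the length used. These are RNA ratios, and protein was not analysed here.

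**Figure D3:**
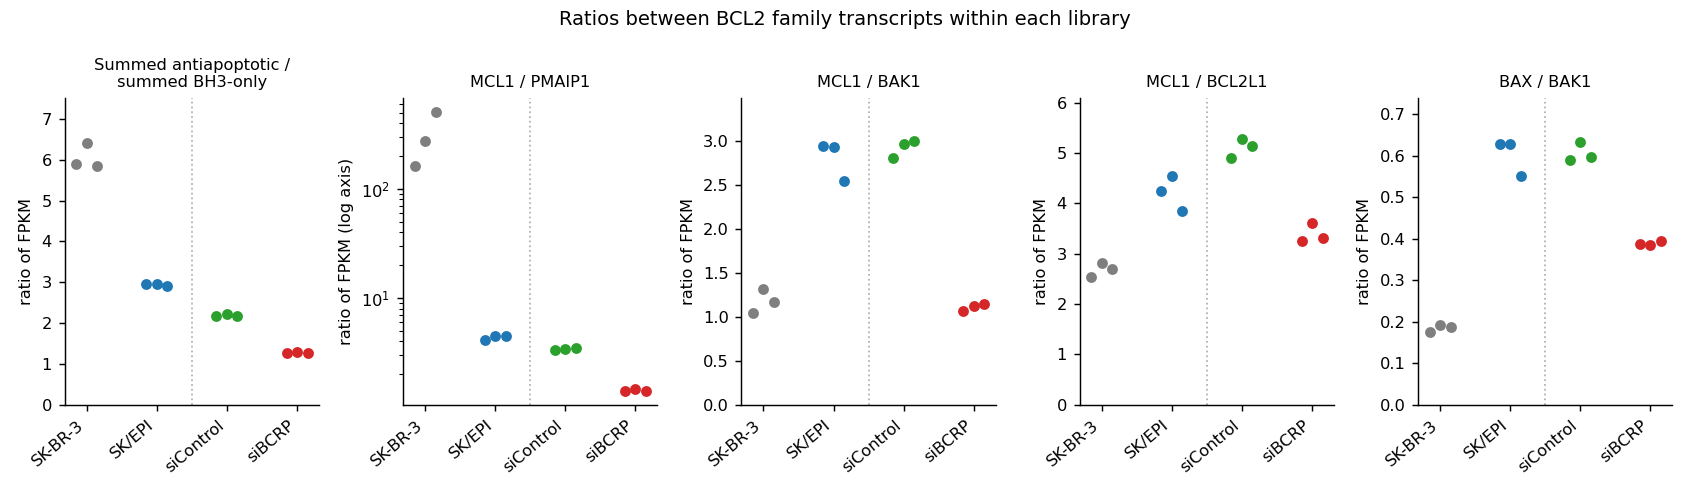
Ratios of FPKM between family members within each library (vertical axes from 0, except the logarithmic axis of MCL1 / PMAIP1), with 1 point for each library of the 4 groups. MCL1 / PMAIP1 lay between 3.32 and 3.45 in SK/EPI-siControl and between 1.41 and 1.48 in SK/EPI-siBCRP.

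Untransfected SK/EPI and SK/EPI-siControl stand in different tables, possibly normalized separately, and their difference was not tested. Mean MCL1 was 78.0 FPKM in the former and 80.5 FPKM in the latter, and BAK1 was 27.9 and 27.5 FPKM. PMAIP1 was at 17.9 and 23.7, BID at 7.83 and 11.5, and BCL2L11 at 5.53 and 7.62 FPKM, the 3 members whose means differed most between these groups when BCL2, with at most 1 read a library there, is set aside.

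MCL1 and BCL2L11 were the members with letters matching the seed of the siRNA strand that targets ABCG2. The complement of bases 2 to 8 of the lower strand is CTGGTTA, and it occurred 2 times in the longest protein-coding MCL1 transcript, 2 times in that of BCL2L11 and in none of the other 8 members. This search was made after the values had been seen. All 4 sites lie in the 3′ untranslated region and are printed with the 25 bases that face the siRNA, the match in capitals.
MCL1 site 1: ttaattaatcttaagatCTGGTTAc
MCL1 site 2: gggtgaacaccttggttCTGGTTAa
BCL2L11 site 1: ctctgtactgtatgtatCTGGTTAt
BCL2L11 site 2: tcagatgcccttcccaaCTGGTTAg
The MCL1 matches lie at chr1:150575110-150575116 and chr1:150574690-150574696 on the minus strand and those of BCL2L11 at chr2:111166499-111166505 and chr2:111166744-111166750 on the plus strand. Over their whole length, 12, 11, 11 and 9 of the 25 bases are complementary to the strand. The upper strand's seed complement AGTATCC occurred once, in BID.

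Across all genes with a protein-coding transcript that were tested after silencing, 15.6% of 13002 held CTGGTTA. Of 10971 genes with no match, 16.7% were called down, of 1744 with 1 match 34.7%, and of 287 with 2 or more 46.3%, with median log2 fold changes of 0.0187, -0.0603 and -0.119. Transcripts with matches were longer, at medians of 4784 and 7162 bases against 3128 bases. Among transcripts of 3000 to 6000 bases the called-down shares were 18.9% of 4201, 36.0% of 751 and 43.8% of 89 genes. For the upper strand's AGTATCC they were 19.2%, 23.9% and 26.1% with 0, 1 and 2 or more matches. The part of such matches in the lower MCL1 and BCL2L11 RNA was not tested.

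**Figure D4:**
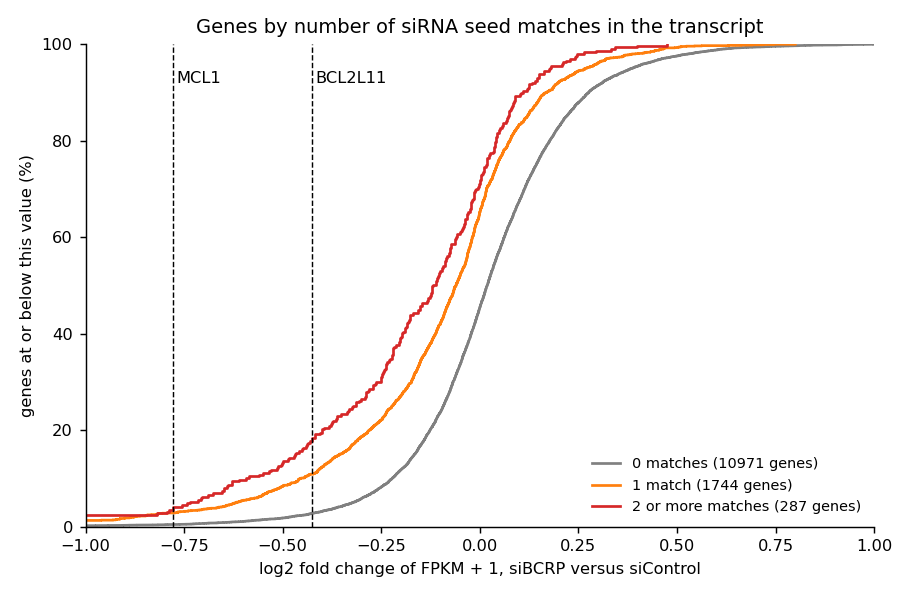
Share of genes (vertical axis, percent) at or below each log2 fold change of SK/EPI-siBCRP against SK/EPI-siControl (horizontal axis, shown from -1 to 1), for genes whose longest protein-coding transcript held CTGGTTA 0 times (10971 genes, grey), once (1744, orange) or more often (287, red). Dashed lines mark MCL1 at -0.78 and BCL2L11 at -0.43, and the red and orange curves lie to the left of the grey one over most of the range.

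The 3 genes whose log2(FPKM + 1) followed MCL1 most closely over the 12 libraries, among 4546 others with a mean of at least 10 FPKM, were CBX3 (Pearson r = 0.993), SERINC3 (r = 0.991) and TRIAP1 (r = 0.991). The libraries fall into 4 groups, and these values mainly carry the low level in SK/EPI-siBCRP. CBX3, a chromatin protein, had group means of 111, 119, 124 and 59.6 FPKM in SK-BR-3, SK/EPI, SK/EPI-siControl and SK/EPI-siBCRP, and TRIAP1 of 11.0, 12.5, 14.2 and 4.04 FPKM. CBX3 and TRIAP1 each held 1 CTGGTTA match, and SERINC3 held none. Within the family the r with MCL1 ran from -0.648 for BID to 0.459 for BCL2L1.

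Other genes around the family were read in fixed lists, chosen by their known roles but with earlier results of these data known. Of the 10 further BCL2 family genes, 6 had enough reads in the first table. BOK rose and BAD and BIK fell in SK/EPI, and 2 were not called, where 74.7% of all tested genes were called. HRK passed the filter only through the group where it was high and is given by its reads. HRK, a BH3-only protein of neurons and some tumours, held 0, 1 and 0 reads in SK-BR-3 and 328, 350 and 403 reads in SK/EPI, a scaled ratio of 1015 with an exact 95% counting interval of 182 to 40140. BOK, an effector-like member, had a log2 fold change of 0.53 (adjusted p = 1.16e-05). For the BH3-only genes BAD and BIK the values were -0.74 (adjusted p = 9.66e-05) and -0.998 (adjusted p = 4.05e-05), and BAD shares 23.7% of its exonic bases with GPR137 on the other strand.

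After BCRP silencing 7 of these 10 genes were tested, 1 rose, 4 fell and 2 were not called. Their median was -0.17 beside -0.0032 over all tested genes, of which 19.1% were called up and 18.4% down. BOK fell by 0.42 on the log2 scale (adjusted p = 0.000376), from 24.6, 23.2 and 25.2 FPKM in SK/EPI-siControl to 19.0, 17.5 and 17.2 FPKM. HRK, whose transcript held 2 CTGGTTA matches, fell by 0.22 (adjusted p = 0.013). For BCL2L13 the log2 fold change was -0.17 (adjusted p = 0.0123), for BMF -0.16 (adjusted p = 0.0393) and for BAD 0.19 (adjusted p = 0.00235). The BMF call was lost in 7 of the alternatives, with adjusted p-values up to 0.108.

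The list of outer membrane and apoptosome genes, through which the family acts, had 9 genes. In SK/EPI 2 rose, 5 fell and 2 were not called, with a median of -0.19 beside 0.0096 over all tested genes. Of all tested genes 74.7% were called, 37.9% up and 36.8% down. APAF1, the scaffold of the apoptosome, was at 1.76, 1.77 and 2.13 FPKM in SK-BR-3 and at 0.342, 0.427 and 0.425 FPKM in SK/EPI, a mean 4.74-fold lower (log2 fold change -1.04, adjusted p = 2.79e-06). VDAC1, an outer membrane channel, fell by 0.83 (adjusted p = 1.2e-07) and CYCS, cytochrome c, by 0.54 (adjusted p = 6.93e-06).

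After silencing 5 of the 9 rose, 3 fell and 1 was not called, with a median of 0.19 beside -0.0032, where 19.1% of all tested genes were called up and 18.4% down. Among these calls DIABLO was lost in 5 alternatives (adjusted p = 0.0785 to 0.207) and APAF1 with no filter on low values (adjusted p = 0.124). CYCS fell by 0.55 (adjusted p = 1.35e-05), from 78.3, 76.3 and 78.9 FPKM to 52.1, 51.7 and 54.7 FPKM, and its transcript held 1 CTGGTTA match. VDAC1 rose by 0.37 (adjusted p = 4.62e-05), and the mitochondrial protease gene HTRA2 by 0.32 (adjusted p = 0.00316). The HTRA2 transcript held 1 CTGGTTA match too. So did those of FBXW7, which fell, and of HUWE1 and FOXO3, which were not called (log2 fold changes 0.03 and -0.09). HTRA2 shares 20.8% of its exonic bases with LOXL3 and 16.1% with AUP1, both on the other strand.

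The 7 genes of MCL1 protein turnover act after the RNA is made. In SK/EPI 4 rose, 2 fell and 1 was not called, where 37.9% of all tested genes were called up and 36.8% down. GSK3B, a kinase that marks MCL1 for degradation, and USP9X, a deubiquitinase that stabilises it, rose by 0.52 (adjusted p = 4.19e-06) and 0.49 (adjusted p = 1.02e-05), and the ubiquitin ligase gene TRIM17 fell by 0.52 (adjusted p = 4.36e-05). Of the other calls FBXW7, a fall, was lost in 6 alternatives (adjusted p = 0.0601 to 0.101) and MARCH5, a rise, without SK/EPI replicate 2 (adjusted p = 0.0602). After silencing 1 rose, 2 fell and 4 were not called, where 19.1% of all tested genes were called up and 18.4% down. FBXW7, the ligase subunit that reads the GSK3B mark, fell by 0.38 (adjusted p = 0.00169), USP9X fell by 0.15 (adjusted p = 0.00984) and GSK3B rose by 0.23 (adjusted p = 0.000862).

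Among 5 regulators known to drive BH3-only genes, 4 were tested in the first table and all 4 rose in SK/EPI, where 37.9% of all tested genes were called up. DDIT3 (CHOP), a factor of the integrated stress response, was at 2.31, 3.18 and 2.89 FPKM in SK-BR-3 and at 9.84, 9.65 and 9.72 FPKM in SK/EPI, a log2 fold change of 1.51 (adjusted p = 1.25e-06). It shares 27.2% of its exonic bases with MARS on the other strand. FOXO3, which drives BCL2L11, rose by 0.24 (adjusted p = 0.0101) and E2F1, a cell cycle factor, by 0.23 (adjusted p = 0.000608). After silencing all 5 were tested, and E2F1 was the 1 gene called, at 0.50 (adjusted p = 0.000107), where 37.5% of all tested genes were called.

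**Figure D5:**
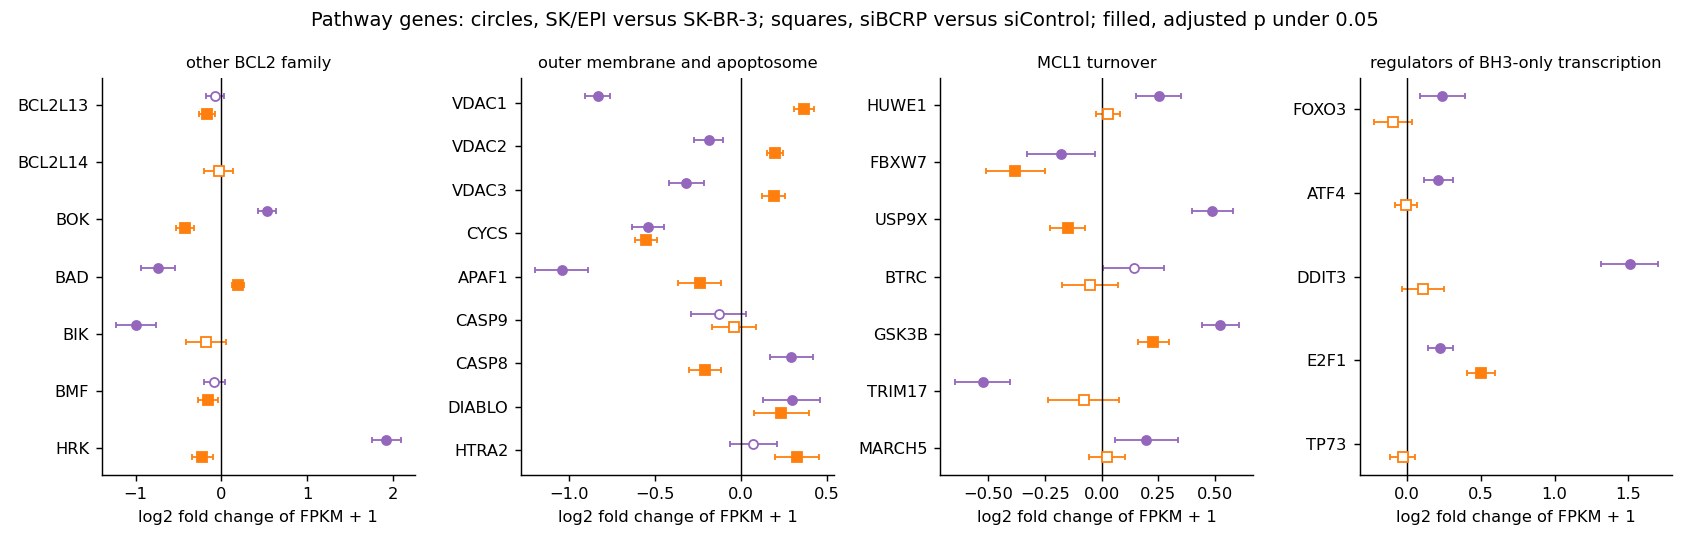
Log2 fold change of FPKM + 1 (horizontal axes) with 95% confidence intervals for the genes of the 4 lists, with circles for SK/EPI against SK-BR-3, squares for SK/EPI-siBCRP against SK/EPI-siControl and filled marks for adjusted p-values under 0.05. HRK lies farthest to the right among the circles, at 1.92, but passed the filter only through the group where it was high and is given by its reads in the text. DDIT3 follows at 1.51, and CYCS lies farthest to the left among the squares, at -0.55.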

How the data were processed

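RNA was sequenced in 12 libraries, 3 for each of 4 groups named in the labels. The authors deposited FPKM for each library in 2 tables. The submitters' processing notes name HISAT2 2.0.5, featureCounts 1.5.0-p3, DESeq2 1.16.1 and hg38. How reads on either strand were counted is not given in the sources used here. The tables state no unit: multiplied by a gene's merged GENCODE 29 exon length, 100% of values were whole multiples of 1 step per library (within 0.01 reads), which gave reads per gene.

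Genes with at least 10 reads in at least 3 libraries of a table were tested. limma 3.58.1 (R 4.3.3; lmFit, eBayes with a trend) was fitted to log2(FPKM + 1) with the group alone, and p-values were adjusted by Benjamini-Hochberg with a threshold of 0.05. Groups were taken from the labels and SD is not shown where the 3 values are. Replicates differed by more than sampling noise (chi-square per degree of freedom 1.64 to 4.27). On simulated reads 85% of 200 changed genes were recovered in the first comparison and 81.5% in the second. Named beside the members were all called genes of the further BCL2 family list. Of each other list, up to 3 called genes with the largest change were named, with ABCG2 and the 3 genes most like MCL1. BCL2L14, ATF4, BTRC, CASP9, DIABLO, HUWE1 and MARCH5 were named outside this rule. The members and lists were chosen with earlier results of these data known. siRNA sequences came from the study's supplement, transcripts from GENCODE 29 and promoters from RefSeq (8 of 10 members matched). Other steps used scipy 1.17.1, pandas 2.3.3, matplotlib 3.10.9 and numpy 2.4.6 in Python 3.11.15. 1 gene of the list of regulators is not reported here.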

Additional observations from a re-analysis of the deposited data

How the results depend on the processing

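The alternatives were a pseudocount of 0.1, no filter on low values, at least 10 reads in every library, median-of-ratios scaling, limma voom on reads, the replicate number as a block, and leaving out each library. Of the 115 values of the members in SK/EPI against SK-BR-3, 11 were of PMAIP1 and 8 of BCL2. Both passed the filter only through the group where they were high, so no weight rests on their kept calls. With these counted, 112 of the 115 kept direction and call, and the 3 others were the lost MCL1 calls. BCL2 was not tested in 4 further settings because it did not pass their filter, without each SK-BR-3 replicate and with at least 10 reads in every library, nor PMAIP1 in the last. After silencing 97 of 108 did, 8 being lost BBC3 calls and 3 sign changes of BCL2L2, which was not called: -0.0048 with voom, -0.0022 without SK/EPI-siBCRP replicate 1 and -0.0184 without SK/EPI-siControl replicate 3, within a leave-one-out range of -0.0184 to 0.0416. Signs also changed for uncalled pathway genes, BCL2L13 in the first comparison (2e-04 with voom), and in the second BCL2L14 (0.0103 without SK/EPI-siBCRP replicate 3 and 0.0211 without SK/EPI-siControl replicate 1, range -0.0989 to 0.0211) and ATF4 (2e-04 with median-of-ratios scaling, 0.0137 without SK/EPI-siBCRP replicate 2 and 0.0226 without SK/EPI-siControl replicate 1, range -0.0239 to 0.0226). BTRC, not called in SK/EPI, was called with at least 10 reads in every library (adjusted p = 0.0444, limma) and with voom (0.00426), CASP9 without SK-BR-3 replicate 2 (0.0379), and BIK after silencing without SK/EPI-siBCRP replicate 1 (0.0322). With the replicate block 5908 genes were called up and 5769 down in the first comparison and 2878 and 2720 in the second, and the calls of BBC3 (adjusted p = 0.0568, limma) and BMF (0.0842) after silencing were the ones it changed among members and listed genes. Same-numbered libraries share only a number here: their deviations correlated at -0.04 to 0.012 over 6 pairs, and 1 of the 12 libraries correlated best with its own number. The cause of these changes was not tested.

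Depth limits BCL2 in every group and PMAIP1 and HRK in SK-BR-3, whose fold changes rest on few reads: BCL2 was at -0.15 with a pseudocount of 1, -1.04 with 0.1 and -4.50 with voom. Counting intervals cover counting error only.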
